A study of Mus musculus with 30 samples.

Results

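Axon guidance receptors are the membrane proteins with which a growing axon reads the cues around it. The 10 genes described here encode such receptors and were chosen by name, with earlier results of these data known. Neo1, Unc5b and Unc5d belong to the netrin and repulsive guidance molecule pathways and Robo2 to the Slit pathway. Epha5, Epha6 and Epha7 belong to the ephrin pathway, and Plxnb1, Plxna3 and Nrp1 to the semaphorin pathway. All rows of the authors' 4 tables of alternative splicing that name one of the 10 genes were taken, of every event type. They came to 38 rows and 25 distinct events in 10 genes, of 6491 rows and 4923 distinct events in 1828 genes.

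The tables come from RNA sequencing of mouse neurons with and without Nova2, an RNA-binding protein of neurons that controls alternative splicing. They cover 18 samples in 6 groups of 3, and 12 samples in the other 4 groups of the series were not analysed here. The cortical groups, at embryonic day 18.5, were sorted neurons of Nova2 conditional knockout (cKO) and wild-type control mice carrying Emx1-Cre, and of cKO and wild-type control mice carrying Gad2-Cre. The Purkinje groups, at postnatal day 28, were the Purkinje cell layer of the cerebellum of cKO and wild-type control mice carrying Pcp2-Cre. All 6 groups were of strain C57BL/6J, all controls carried the same Cre as their cKO, and ribosomal RNA was depleted from total RNA in all of them. As background, Emx1 is active in cortical progenitors that give excitatory neurons and also glia, Gad2 marks inhibitory neurons, and Pcp2 marks Purkinje cells, which are not the only cells of their layer. Nothing in the labels ties the 3 samples of a group to separate animals, so the authors' p-values may measure technical spread.

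A table holds only events past the thresholds of its authors, each table for 1 comparison: a false discovery rate (FDR) of at most 0.05 and a difference in inclusion level of at least 0.1 in size. All listed events also had a coverage of at least 20. An inclusion level is the authors' estimate of the fraction, from 0 to 1, of an event's RNA that has the first-named form. Events can overlap and each has its own level, so levels of forms that exclude one another can add to more than 1. A table gives 1 pooled level per group, so a level has no replicate error here, and an event that is not listed is not shown to be the same in both groups. Coverage is a value of the authors, 1 for both groups, that no source used here defines. It is taken here as a guide to the amount of data behind an event. The median coverage per table lay between 52 and 88.5. Nova2 itself had 0 listed events in each table, and the sorted cell types could not be checked, since levels of their marker genes were not analysed here. For mutually exclusive exons and alternative 5' splice sites, the direction is only that of the form the authors name first. For the 5' splice site events, the deposited interval is that of the second-named form, and the exon of the first-named form, to which the level belongs, is not in the interval list.

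Several of these receptors act on the same growth cone. Netrins and repulsive guidance molecules bind neogenin, the product of Neo1, while Unc5 receptors turn the netrin response to repulsion. Slit proteins repel axons through Robo receptors, ephrin-A ligands on neighbouring cells signal through EphA kinases, and semaphorins act through plexins, for some of them with neuropilin as partner. Alternative exons can change the extracellular, membrane-near or cytoplasmic part of such a receptor without changing whether it is made.

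Sequences are given for 4 exons, each either at a difference of at least 0.3 or in 2 or more tables, as the GENCODE M21 transcripts have them on build mm10 (GRCm38), all on the minus strand and 5' to 3'. Capitals mark the tetramers of the motif YCAY, in which CA has a pyrimidine (T or C) before and after it and to which Nova proteins are known to bind. In the shortest, a 12-nt exon of Robo2, capitals mark the exon itself between 30 nt of each neighbouring exon.
Neo1 exon of 159 nt, chr9:58884470-58884628: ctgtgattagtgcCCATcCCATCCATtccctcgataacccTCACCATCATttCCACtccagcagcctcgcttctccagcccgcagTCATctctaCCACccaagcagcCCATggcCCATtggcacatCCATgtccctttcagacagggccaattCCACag
Epha5 exon of 66 nt, chr5:84117561-84117626: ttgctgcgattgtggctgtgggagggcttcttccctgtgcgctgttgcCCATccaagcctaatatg
Robo2 exon of 273 nt, chr16:73898912-73899184: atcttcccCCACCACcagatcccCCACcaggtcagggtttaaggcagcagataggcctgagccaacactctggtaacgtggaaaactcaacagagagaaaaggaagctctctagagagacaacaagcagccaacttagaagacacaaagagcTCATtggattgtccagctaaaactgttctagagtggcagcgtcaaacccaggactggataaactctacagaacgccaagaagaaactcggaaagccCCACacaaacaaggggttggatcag
Robo2 exon of 12 nt, chr16:74008775-74008786, with its neighbours: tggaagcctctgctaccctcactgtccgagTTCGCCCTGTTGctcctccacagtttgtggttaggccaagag

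The Neo1 exon is exon 26 of transcript Neo1-201 and adds 53 codons, codons 1279 to 1332 of 1492, in the cytoplasmic part of neogenin. Both GENCODE transcripts that code for the full protein include it. It held 13 of the tetramers, or 8.18 per 100 nt, and 99.6% of the 244 listed cassette exons of like length (the shorter at least 0.75 times as long as the longer, the exon itself among them) held fewer, with a median of 3. The Epha5 exon held 1 tetramer, the median of 289 exons of like length, of which 61.6% held at least 1. Robo2 had 5 in its exon of 273 nt, also the median of 69 like exons, and 0 in its exon of 12 nt, where 17.2% of 29 like exons held at least 1. These counts overlap where tetramers share letters, were made on the transcript strand of the exon only, and describe letters, not binding. The background was the 1020 of 1730 listed cassette exons whose sequence is in GENCODE.

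**Figure D1:**
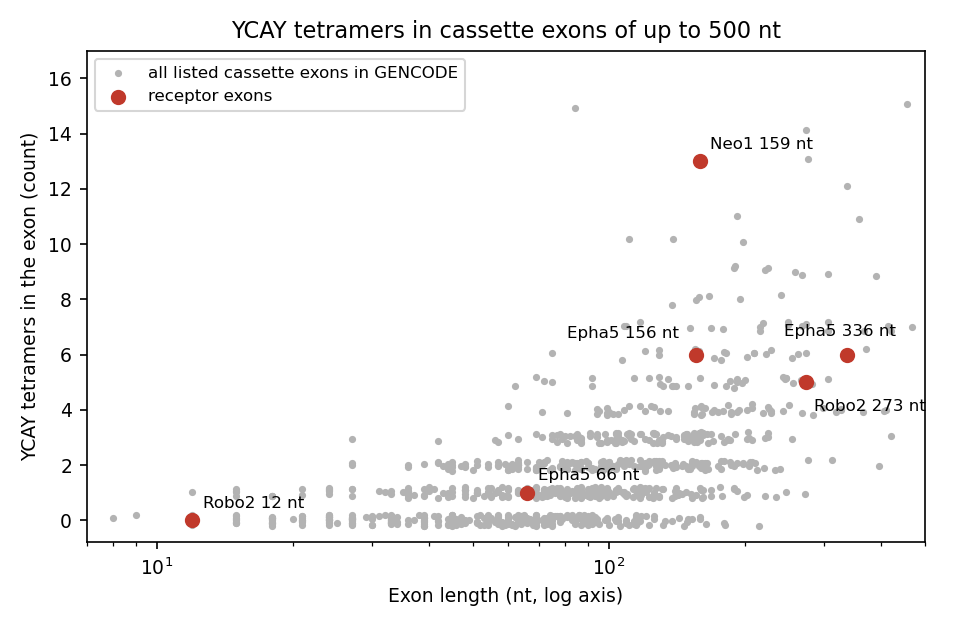
Number of YCAY tetramers in each listed cassette exon with a GENCODE sequence (grey) against exon length in nt on a log axis, with the receptor exons in red; grey points are moved slightly up or down so that they can be seen, and 1001 of 1020 exons are up to 500 nt long and shown. The Neo1 exon stands at 13 tetramers, above nearly all exons of its length, while the Epha5 exon of 66 nt and both Robo2 exons stand among the others.

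In Emx1-Cre neurons, 13 events of 6 of the 10 genes were listed, 8 higher and 5 lower in cKO, where 48.4% of all 2682 listed events were higher. Joined where their alternative regions overlap, they made up 6 places in the genome, 1 in each gene: Neo1 and Robo2 were higher in cKO, while Epha5, Plxnb1, Unc5b and Unc5d were lower. Of the 9 cassette and tandem events, whose direction is one of inclusion, 7 were higher in cKO, where 47.5% of all such events were. The median size of the difference was 0.378 over the 13 events and 0.209 over all listed events. Of the 13 events, 7 hold the same Neo1 exon, and 6 of these are among the 7 higher cassette and tandem events. The median and the counts of events in Emx1-Cre neurons thus hold that exon more than once. In Gad2-Cre neurons, 13 events of 7 genes were listed, 10 higher and 3 lower in cKO, where 41.4% of all 1970 listed events were higher. They made up 9 places, of which 6 were higher (Neo1, Epha7, Nrp1 and 3 in Robo2) and 3 lower (Epha6, Plxna3 and Plxnb1). Of the 8 cassette and tandem events 7 were higher in cKO, all but that of Epha6, where 34.3% of all such events were. The median difference of the 13 events was 0.256 in size, against 0.202 over all listed events. Of these 13, 5 hold the same Neo1 exon, and all 5 are among the 7 higher cassette and tandem events. The median and the counts of events thus hold that exon 5 times.

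**Figure D2:**
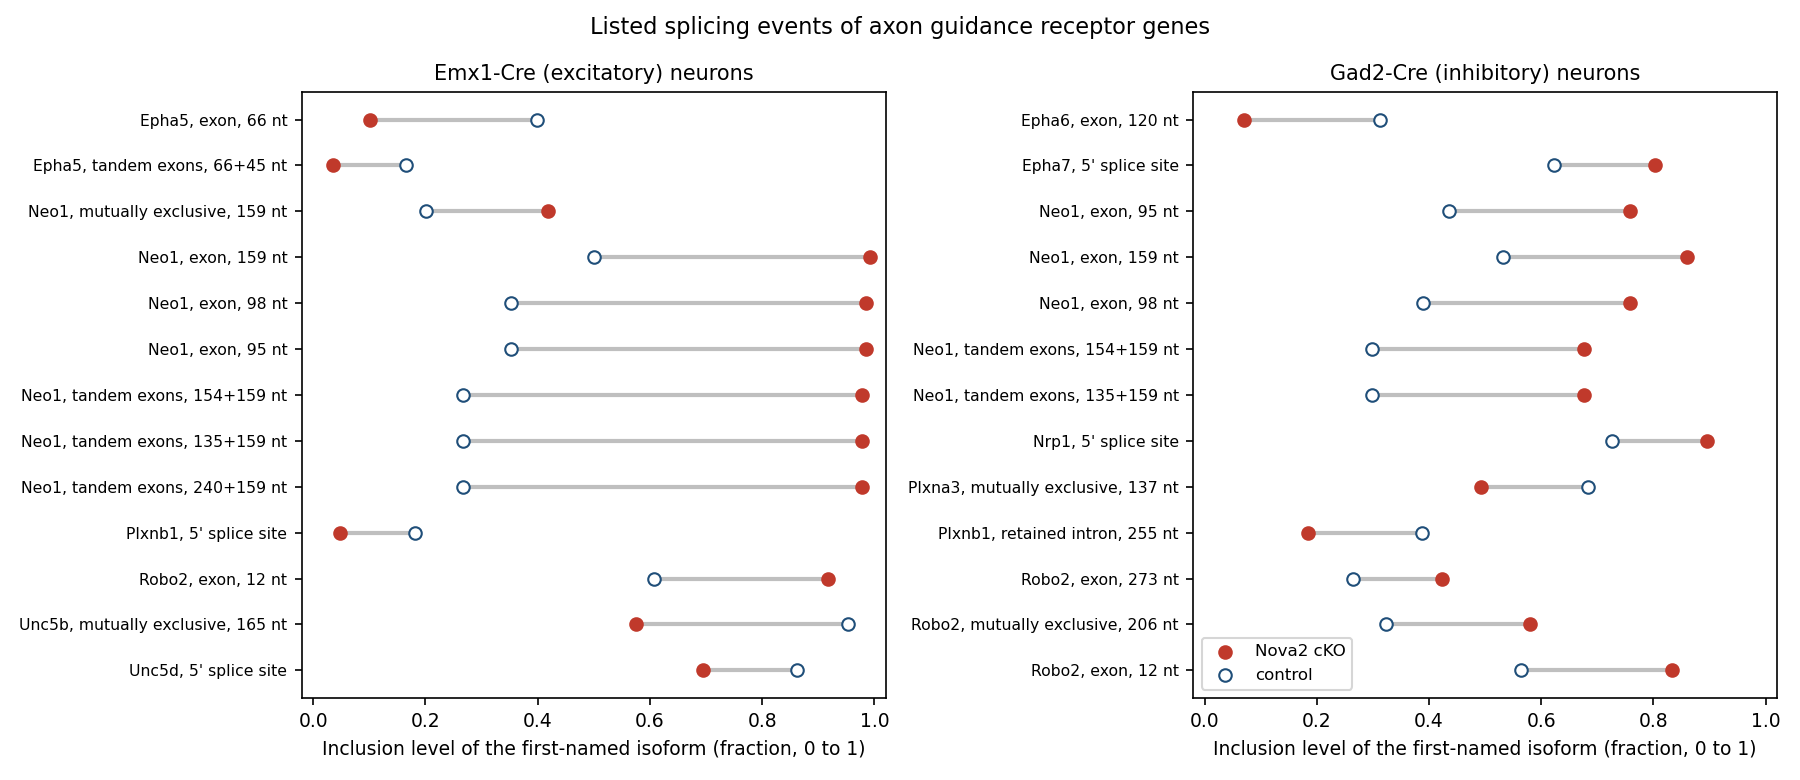
Inclusion level of the first-named form, from 0 to 1, of each listed receptor event in Nova2 cKO (red) and control (white) groups of Emx1-Cre (left) and Gad2-Cre (right) neurons, 1 pooled authors' value per group without error; lengths are those of the alternative regions, with none given for 5' splice site events. The cassette and tandem events of Neo1 have the widest gaps in the right panel and, in the left panel, the 6 widest, and the Robo2 exon of 12 nt is higher in cKO in both.

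Among the netrin and repulsive guidance molecule receptors, the cytoplasmic exon of Neo1 (ENSMUSG00000032340) had a higher inclusion level in cKO than in control neurons. In the authors' deposited table its inclusion level was 0.992 in Emx1-Cre cKO neurons, against 0.500 in Emx1-Cre controls, with an FDR of 8.84e-40 at a coverage of 68.8. For Gad2-Cre neurons the authors' deposited table gave 0.861 in cKO, against 0.532 in controls, with an FDR of 0.00369 at a coverage of only 27.1. Both cKO groups were thus above both control groups, and no Neo1 event was listed between the controls.

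The same exon was also listed in shorter forms that begin inside it, at acceptor sites that GENCODE does not have. Forms of 98 nt and 95 nt, which leave out its first 61 and 64 nt and keep 6 of its 13 tetramers, both had levels of 0.985 in Emx1-Cre cKO and 0.353 in Emx1-Cre control neurons, by the authors' values. In Gad2-Cre neurons the authors' deposited table gave the 98-nt form at 0.758 in cKO and 0.389 in controls, and the 95-nt form at 0.758 in cKO and 0.436 in controls. Neither length is a multiple of 3 nt, so either form would shift the reading frame. The full exon and these forms cannot each make up nearly all Neo1 RNA, so the levels do not give the share of each form.

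Tandem events join the exon to an upstream exon of 154, 135 or 240 nt that GENCODE does not annotate. All 3 stood at 0.977 in Emx1-Cre cKO and 0.267 in Emx1-Cre control neurons in the authors' deposited table, and with ranks of 48 and 49 among 2682 they were among its larger differences. The tandems of 154 nt and 135 nt were listed in Gad2-Cre neurons as well, by the authors' values at 0.676 in cKO and 0.298 in controls with an FDR of 0.0261 each. The 6 cassette and tandem events of Neo1 had the same coverage of 68.8 in Emx1-Cre neurons and hold the same exon. They are thus not separate measurements, and their levels do not give the share of each form in Neo1 RNA. In a further, mutually exclusive event the first-named form has the same exon, and the span also holds the GENCODE exon of 264 nt that follows it. This form stood at 0.418 in Emx1-Cre cKO and 0.201 in Emx1-Cre control neurons in the authors' deposited table, with an FDR of 1.27e-05 at a coverage of 299.

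Events of the Unc5 receptors were lower in Emx1-Cre cKO and listed in that table alone. Unc5b (ENSMUSG00000020099) has a mutually exclusive event whose first-named exon of 165 nt, chr10:60777390-60777554, is exon 7 of Unc5b-201 and codes for codons 301 to 356 of 945. The authors' deposited table gave this form at 0.574 in Emx1-Cre cKO and 0.952 in Emx1-Cre control neurons, with an FDR of 0.00220. Its coverage of 21 lies just above the minimum, and the event also spans a GENCODE exon of 33 nt, exon 8. No GENCODE coding transcript skips exon 7, while exon 8 is in only 1. The level does not show whether exon 7 was left out or another exon was added. In Unc5d (ENSMUSG00000063626) the event is a choice of 5' splice site, whose second-named form has an exon of 147 nt, chr8:28724260-28724406. GENCODE also has a longer exon of 186 nt from the same start, with 13 more codons. The first-named form stood at 0.695 in Emx1-Cre cKO and 0.861 in Emx1-Cre control neurons in the authors' deposited table, with an FDR of 0.0393.

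Robo2 (ENSMUSG00000052516), a Slit receptor, included its 12-nt exon more often in cKO neurons of both cortical classes than in controls. This exon, exon 7 of Robo2-210, codes for 4 amino acids at codons 312 to 316 of 1512, in the extracellular part, and Robo2-202 and Robo2-203 skip it. Its level in the authors' deposited table was 0.917 in Emx1-Cre cKO and 0.607 in Emx1-Cre control neurons, with an FDR of 1.85e-28 at a coverage of 165. By the authors' values it stood at 0.833 in Gad2-Cre cKO and 0.564 in Gad2-Cre control neurons, with an FDR of 5.86e-07 at a coverage of 116. Both cKO groups were above both control groups, as for the Neo1 exon, and at a higher coverage.

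A second Robo2 exon, of 273 nt, lies in the cytoplasmic part at codons 1357 to 1448 and is skipped by Robo2-202 and Robo2-204. In the authors' deposited table it stood at 0.423 in Gad2-Cre cKO and 0.265 in Gad2-Cre control neurons, with an FDR of 0.00543 at a coverage of 155. Between controls it was higher in Emx1-Cre neurons, by the authors' values at 0.430, against 0.265 in Gad2-Cre controls, with an FDR of 0.0270. The Gad2-Cre control level is the same measurement in both comparisons. A form of 180 nt within this exon was listed between controls, at 0.270 in Emx1-Cre and 0.167 in Gad2-Cre neurons in the authors' deposited table. The third place in Robo2 is a mutually exclusive event whose first-named exon of 206 nt, chr16:73916098-73916303, is exon 25 of Robo2-210. This form stood at 0.579 in Gad2-Cre cKO and 0.323 in Gad2-Cre control neurons by the authors' values, with an FDR of 0.0134. The event's span also holds other GENCODE exons, among them those of 174, 183 and 273 nt. Which of them is the alternative form is not shown. No GENCODE coding transcript skips the exon of 206 nt, so the level does not show whether that exon itself changed.

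**Figure D3:**
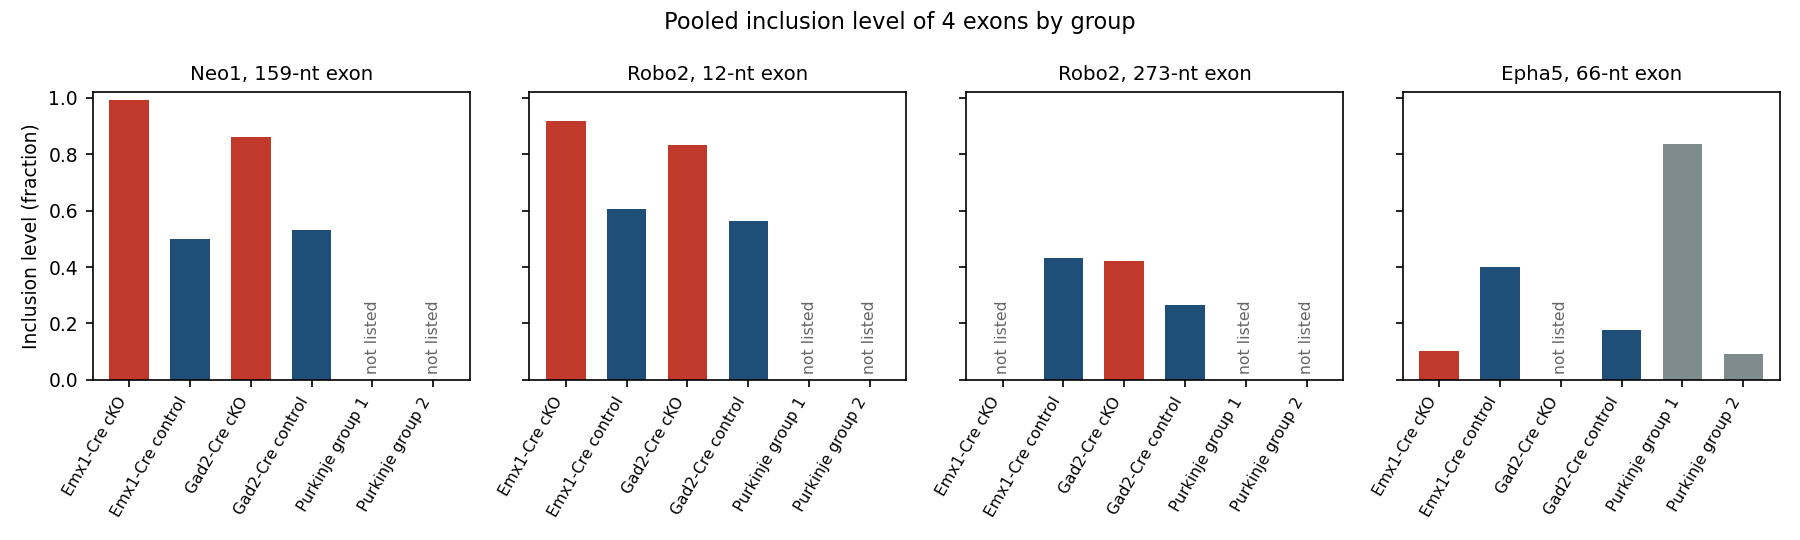
Inclusion level (fraction) of 4 receptor exons in each of the 6 groups, as 1 pooled authors' value per group without error; "not listed" means that no table that lists the exon holds that group. The Neo1 exon and the 12-nt Robo2 exon are higher in both cKO groups (red) than in both cortical control groups (blue), and the Epha5 exon runs from 0.0909 in Purkinje group 2 to 0.837 in Purkinje group 1 (grey).

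Among the ephrin receptors, Epha5 (ENSMUSG00000029245) had an exon that was lower in Emx1-Cre cKO neurons. It was also the most different of all listed events in the Purkinje layer. The exon of 66 nt is exon 9 of Epha5-205, at codons 600 to 622 of 1040, and Epha5-204 and Epha5-206 skip it. In the authors' deposited table its level was 0.102 in Emx1-Cre cKO and 0.399 in Emx1-Cre control neurons, with an FDR of 7.11e-14 at a coverage of 293. Between controls the authors' deposited table gave 0.399 in Emx1-Cre and 0.178 in Gad2-Cre neurons, with an FDR of 2.35e-07. No event of Epha5 was listed for Gad2-Cre cKO against control, so the exon's level in Gad2-Cre cKO is not known here.

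In the Purkinje layer the authors' deposited table gave the same exon at 0.837 in group 1 and 0.0909 in group 2, with an FDR of 1.1e-05 at a coverage of 24.0. That difference of 0.746 ranked 1 among the 603 listed events, whose median was 0.170 in size and of which 32.2% were higher in group 1. Neither the labels nor the file headers say which of the Purkinje groups is the cKO, so no direction of change follows from these levels. In order of level, the 5 known groups were Purkinje group 1, Emx1-Cre control, Gad2-Cre control, Emx1-Cre cKO and Purkinje group 2. Neighbours in this order were not compared by a test except for the controls.

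A tandem event adds to it a downstream exon of 45 nt that GENCODE does not annotate, at chr5:84117182-84117226. It stood at 0.0360 in Emx1-Cre cKO and 0.165 in Emx1-Cre control neurons in the authors' deposited table. Its levels in the Purkinje layer were 0.636 in group 1 and 0.0164 in group 2 by the authors' values, at a coverage of 21. Of the controls, Emx1-Cre neurons had 0.165 and Gad2-Cre neurons had 0.0610 by the authors' values. Each of these pairs had the direction of the 66-nt exon alone, which both events hold.

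Epha5 also had 4 events between controls in its extracellular part, all lower in Emx1-Cre neurons. Its exon 4 of 156 nt, chr5:84237399-84237554, codons 306 to 358, stood at 0.533 in Emx1-Cre and 0.703 in Gad2-Cre controls in the authors' deposited table, with an FDR of 2.77e-05. Together with exon 5 of 336 nt, codons 358 to 470, it had levels of 0.636 in Emx1-Cre and 0.794 in Gad2-Cre controls by the authors' values. With a 141-nt form of exon 5 the authors' values were 0.560 in Emx1-Cre and 0.757 in Gad2-Cre controls, and with an unannotated exon of 128 nt they were 0.171 in Emx1-Cre and 0.297 in Gad2-Cre controls. All 4 events hold exon 4 and are thus not separate measurements, and exon 5 was not listed alone. The direction of the 4 events between the classes was opposite to that of the exon of 66 nt. Exons 4 and 5 each held 6 tetramers, against medians of 2 for exons like the shorter and 5 for exons like the longer one.

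The other 2 EphA receptors were listed in Gad2-Cre neurons. A region of 120 nt in Epha6 (ENSMUSG00000055540), chr16:60483791-60483910, stood at 0.0702 in Gad2-Cre cKO and 0.312 in Gad2-Cre control neurons in the authors' deposited table, with an FDR of 0.000790 at a coverage of 37. It lies within a GENCODE exon of 314 nt with which it shares 1 end, outside annotated coding sequence. In Epha7 (ENSMUSG00000028289) the event is a 5' splice site choice whose second-named form has an exon of 169 nt, chr4:28938596-28938764, and GENCODE also has this exon with 15 nt, or 5 codons, more. The first-named form stood at 0.803 in Gad2-Cre cKO and 0.622 in Gad2-Cre control neurons in the authors' deposited table, with an FDR of 0.0146. Among controls the first-named form had 0.810 in Emx1-Cre and 0.622 in Gad2-Cre neurons by the authors' values, with an FDR of 0.0223.

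The semaphorin receptors had differences of at most 0.202 in size. An intron of 255 nt in Plxnb1 (ENSMUSG00000053646), which encodes the receptor of semaphorin 4D, was retained at 0.185 in Gad2-Cre cKO and 0.387 in Gad2-Cre control neurons in the authors' deposited table, with an FDR of 0.00174. It lies at chr9:109108544-109108798. Of the 242 retained introns listed in this comparison, 73.1% were higher in cKO, which the Plxnb1 intron was not. Between controls it stood at 0.217 in Emx1-Cre and 0.387 in Gad2-Cre neurons by the authors' values, with an FDR of 0.0387. A 5' splice site event of Plxnb1, with an exon of 157 nt, chr9:109103613-109103769, as second-named form, had its first-named form at 0.0476 in Emx1-Cre cKO and 0.182 in Emx1-Cre control neurons in the authors' deposited table (FDR of 0.0289, coverage of 24).

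Plxna3 (ENSMUSG00000031398), a plexin that signals with neuropilins, was listed with a mutually exclusive event. Its first-named exon of 137 nt, chrX:74336719-74336855, is exon 16 of Plxna3-201, and its span also holds exon 17 of 171 nt. No GENCODE coding transcript skips exon 16, so the level does not show whether that exon itself was left out. By the authors' values this form stood at 0.493 in Gad2-Cre cKO and 0.684 in Gad2-Cre control neurons, with an FDR of 0.0241 at a coverage of 117. Nrp1 (ENSMUSG00000025810), the neuropilin that binds class 3 semaphorins and also VEGF, had a 5' splice site event whose second-named form has an exon of 84 nt, chr8:128480885-128480968, and GENCODE has this exon with 21 nt, or 7 codons, more. The first-named form was at 0.896 in Gad2-Cre cKO and 0.726 in Gad2-Cre control neurons in the authors' deposited table. That FDR of 0.0479 lies just below the authors' threshold, at a coverage of 31.6.

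**Figure D4:**
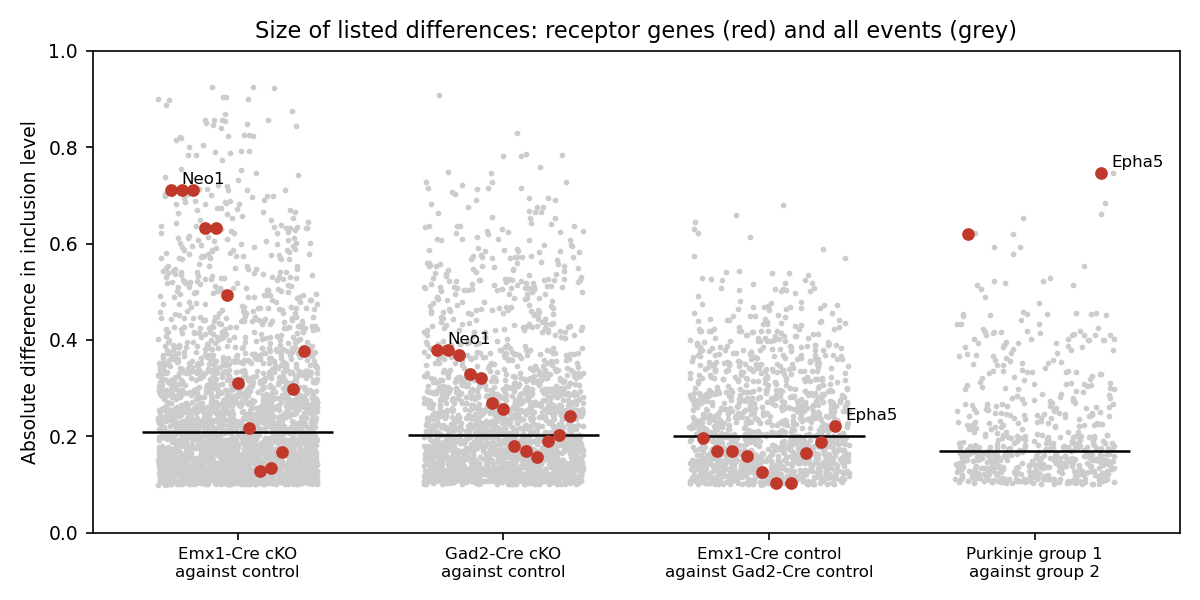
Absolute difference in inclusion level of every listed event (grey), with the median of each comparison (black line) and the receptor events in red; the gene with the largest receptor difference is named. The highest receptor events of both cKO comparisons are of Neo1, and the Epha5 exon at 0.746 is the highest of all 603 events of the Purkinje comparison.

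Of the 13 receptor events of each cortical table, 6 were listed in both, 5 in Neo1 and 1 in Robo2, or 1 place in each gene. Over all events, 30.7% of the Emx1-Cre list was also in the Gad2-Cre list and 41.8% of the Gad2-Cre list was in the Emx1-Cre list. All 6 were higher in cKO in both classes, and 97.4% of the 823 shared events had the same direction in both. The remaining 8 receptor genes were listed for one class or as different events: Plxnb1 had its splice site event in Emx1-Cre and its retained intron in Gad2-Cre neurons.

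To set the sizes side by side, the difference between the classes was computed for each shared event, with its spread taken back from the authors' p-values as if they came from a normal test. The Neo1 exon of 159 nt differed by 0.492 in Emx1-Cre and 0.329 in Gad2-Cre neurons, a gap of 0.164 ± 0.0989 (SE) with a 95% interval from -0.0300 to 0.358 and an adjusted p of 0.333 (Benjamini-Hochberg over 823 events). For the 95-nt form the gap was 0.310 ± 0.106 (SE), with an interval from 0.101 to 0.518 and an adjusted p of 0.0312, the 1 receptor event of 6 below 0.05. Of all 823 shared events, 12.9% were below it. The 98-nt form and the tandem events had gaps of 0.263 and 0.332, with adjusted p-values of 0.144 and 0.110. Robo2's 12-nt exon had a gap of 0.0419 ± 0.0552 (SE), with an interval from -0.0662 to 0.150 and an adjusted p of 0.730. These p-values depend on the test assumed. As an alternative, each spread was taken back through a t distribution on 4 degrees of freedom and the gap was tested by a t distribution. All 6 receptor events and 623 of the 823 shared events then fell below 0.05. Through that distribution, very small p-values, as these 6 events had in Emx1-Cre neurons, become spreads near 0, so that small gaps can pass. The alternative thus cannot decide whether the events differ between the classes.

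Between the controls, 10 events of 4 receptor genes were listed, 5 higher and 5 lower in Emx1-Cre neurons, where 36.3% of all 1236 listed events were higher. They made up 5 places, in Epha5, Epha7, Plxnb1 and Robo2, with a median difference of 0.168 in size, against 0.201 over all events. Each level of a control group here is the same measurement as in the cKO comparison of its class, as it was for all 307 and all 323 events that they share.

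The receptors belong to a list of 111 genes of axon guidance, with ligands, receptors and downstream proteins. In Emx1-Cre neurons 17 of them were listed, 7 with their largest event higher in cKO and 10 lower, where 51.1% of all 1044 listed genes had theirs higher. Apart from the 10 receptors, 11 of 101 genes were listed, 5 higher and 6 lower. In Gad2-Cre neurons 13 of the 111 were listed, 6 higher and 7 lower, where 48.1% of 880 genes were higher, and apart from the receptors 6 were, 2 higher and 4 lower. How many genes were tested is not known here, so the number listed cannot be set against a share of all genes. Each of the 10 receptors has a listed event in at least 1 comparison. They were chosen with earlier results of these data known, so this count is not a finding. The median size of the largest event per gene was 0.264 over the list and 0.204 over all listed genes in Emx1-Cre neurons. In Gad2-Cre neurons it was 0.242 over the list and 0.208 over all listed genes. Apart from the 10 receptors, the list had medians of 0.228 in Emx1-Cre and 0.302 in Gad2-Cre neurons. Between controls 9 of the 111 were listed, 3 higher and 6 lower, where 37.5% of 552 genes were higher in Emx1-Cre neurons. Of the Purkinje comparison, only Epha5 and Arhgef11 were on the list, 1 higher and 1 lower in group 1, where 26.5% of 253 genes were higher.

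Of the downstream genes, Ablim1, which encodes an actin-binding LIM protein, had a cassette exon at 0.784 in Emx1-Cre cKO and 0.0854 in Emx1-Cre control neurons in the authors' deposited table, with an FDR of 1.06e-35. Of its 7 listed events, 2 were higher and 5 lower in Emx1-Cre cKO, and by the authors' values a tandem event stood at 0.491 in Emx1-Cre cKO and 0.874 in Emx1-Cre controls. The first-named form of a mutually exclusive event in Pak3, a kinase downstream of Rac and Cdc42, stood at 0.588 in Emx1-Cre cKO and 0.0690 in Emx1-Cre control neurons by the authors' values. A cassette exon of Pak3 stood at 0.579 in Gad2-Cre cKO and 0.211 in Gad2-Cre control neurons in the authors' deposited table. Both Pak3 events were higher in cKO, though they are different events at a coverage of 29 and 28.9.

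Ptk2, the gene of focal adhesion kinase, had a cassette exon that was lower in cKO, at 0.364 in Emx1-Cre cKO and 0.704 in Emx1-Cre control neurons by the authors' values. Between controls, a mutually exclusive event of Ptk2 had 0.317 in Emx1-Cre and 0.760 in Gad2-Cre neurons in the authors' deposited table. A mutually exclusive form of Enah, an actin regulator of the Ena/VASP family, was at 0.543 in Gad2-Cre cKO and 0.869 in Gad2-Cre control neurons by the authors' values.

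Of the ligands, Sema3f, a class 3 semaphorin, had a listed event with a lower level in cKO in each class, but of different types. Its cassette exon stood at 0.243 in Emx1-Cre cKO and 0.704 in Emx1-Cre control neurons in the authors' deposited table (coverage of 23). A retained intron of Sema3f stood at 0.281 in Gad2-Cre cKO and 0.667 in Gad2-Cre control neurons by the authors' values. Between controls that intron had 0.311 in Emx1-Cre and 0.667 in Gad2-Cre neurons in the authors' deposited table. Sema6c, a transmembrane semaphorin, had tandem exons at 0.259 in Emx1-Cre and 0.654 in Gad2-Cre controls by the authors' values.

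**Figure D5:**
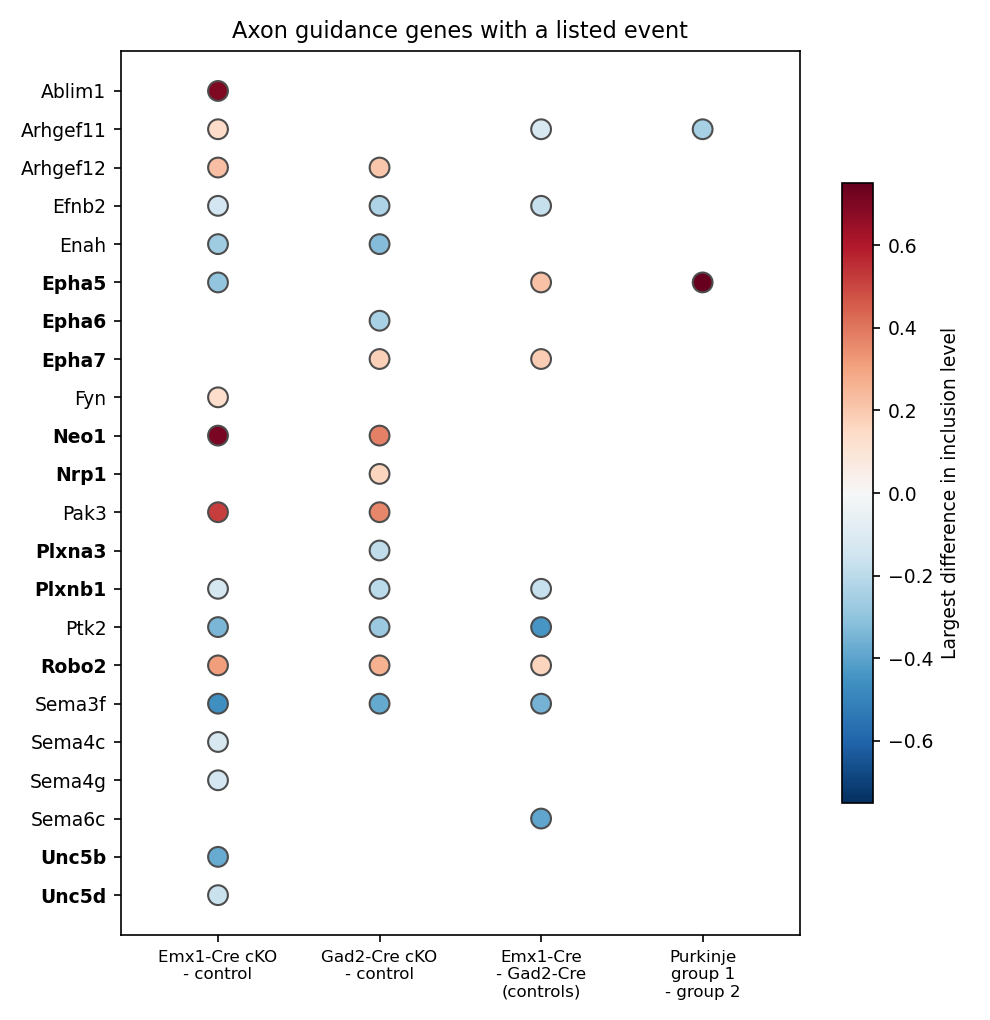
Largest difference in inclusion level (colour) of each axon guidance gene with a listed event, by comparison, with the 10 receptor genes in bold; an empty place means that no event was listed. Neo1 and Robo2 are higher in cKO in both cortical classes, and Epha5 is lower in Emx1-Cre cKO, higher in Emx1-Cre than in Gad2-Cre controls, and higher in Purkinje group 1 than in group 2.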

How the data were processed

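RNA was extracted with Trizol and sequenced from ribosomal RNA-depleted TruSeq libraries, per the labels' protocols. Per the labels, the authors' splicing tables come from Quantas on build mm10. Kallisto and edgeR are named too, in the submitters' processing notes, without a role; the aligner and all versions are not given in the sources used here. Per the file headers, each deposited table gives for each event 1 inclusion level per group as a fraction, the difference between the groups, coverage (a signal that no source used here defines), and the authors' p-value and FDR. Library depth is unknown. Controls are named first, per the labels, in the cortical cKO tables, whose differences were turned round to cKO minus control, and no order is given for the Purkinje table.

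Positions came from the deposited interval lists, counted from 1, and exons from GENCODE M21 (GRCm38). That annotation held 97.1% to 98.9% of the flanking splice sites of the cassette events in each comparison. Flanks of the other event types were not checked. Tables were read with Python 3.11.15, pandas 2.3.3 and scipy 1.17.1. Events were matched by identifier and isoform. The computation of the difference between classes was also run on simulated data with 200 changed events. Those data were drawn under the same normal assumption, so that run could not check the assumption. All 10 genes are named with every listed event. Other genes of the list are named at a difference of at least 0.3 in any table, by their largest event and, for Ablim1, 1 event of the other direction chosen after its values were seen. The genes and lists were chosen with earlier results of these data known.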

Additional observations from a re-analysis of the deposited data

Results flagged for a closer look

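The 95-nt form of the Neo1 exon stands out because its change in cKO differed between the classes: it was larger by 0.310 in Emx1-Cre than in Gad2-Cre neurons (adjusted p of 0.0312 over 823 events, with the spread taken back from the authors' p-values). It was the 1 receptor event of 6 with an adjusted p below 0.05, as were 12.9% of all 823 shared events. With spreads taken back through a t distribution on 4 degrees of freedom, all 6 receptor events and 623 of the 823 fell below it. That setting turns very small p-values into spreads near 0, so it cannot decide whether the events differ between the classes. The 98-nt form, which overlaps the 95-nt form, had an adjusted p of 0.144. The 159-nt exon that contains it had an adjusted p of 0.333, and coverage was 68.8 in Emx1-Cre and 27.1 in Gad2-Cre neurons. The part of coverage in this result was not tested, and the level of this event does not give the share of the 95-nt form in Neo1 RNA.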

How the results depend on the processing

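No paired analysis was possible because the tables hold 1 pooled level per group, which also means that no replicate could be left out. Of 22 alternatives, 14 left their count within 1.5 times and 8 did not. With 1 event per gene, 2 of 6 receptor genes were higher in Emx1-Cre cKO, in place of 8 of 13 events, and 4 of 7 were higher in Gad2-Cre cKO, in place of 10 of 13. In Gad2-Cre neurons, 5 of 7 were higher at an FDR of at most 0.01 and 4 of 6 at a coverage of at least 40. That coverage left 1 event, the 12-nt exon of Robo2, in both cortical tables in place of 6. The adjusted p of the difference between classes was below 0.05 for 1 of 6 events. It was so for 0 of 2 with 1 event per gene (43 of 355 over all genes) and for 0 of 1 at a coverage of at least 40 (85 of 630). With spreads taken back through a t distribution on 4 degrees of freedom, it was so for 6 of 6 (623 of 823). That setting turns very small p-values into spreads near 0 and so cannot decide the question. Without adjustment the counts were 4 of 6 as reported, 1 of 2 with 1 event per gene and 0 of 1 at the higher coverage. The tetramer counts in 200 or 100 nt of flanking intron were not run, since no genome sequence was used. Low coverage limits most the Unc5b event and the Plxnb1 splice site event in Emx1-Cre neurons, the Neo1 and Nrp1 events in Gad2-Cre neurons and the Epha5 events in the Purkinje layer.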
